A study of Arabidopsis thaliana with 6 samples.

Results

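Jacalin-related lectins are sugar-binding proteins built from repeats of a jacalin domain, and they form a large family in Arabidopsis thaliana. The 9 genes described here are JAL30 to JAL35, which lie side by side on chromosome 3, and JAL20, JAL22 and JAL23 on chromosome 2. They were picked by gene identifier from the 33617 genes of the deposited table, with results of the genotype comparison already known, so the values of that comparison describe them and do not test them. Of the 9, 5 had at least 60 fragments over the 6 libraries and count as measured. The gene just inside that limit was JAL32, with 1605 fragments, and the one just outside was JAL22, with 32.

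In crucifers some of these lectins act in a defence system that is set off by wounding. The beta-glucosidase PYK10 is stored in ER bodies, spindle-shaped compartments of the endoplasmic reticulum found in seedlings and roots. When tissue is crushed, cytosolic lectins meet PYK10 and large complexes form. JAL30, also called PYK10-binding protein 1 (PBP1), and JAL33 have been described as lectins that promote the growth of these complexes, and JAL22, JAL23 and JAL31 as lectins that limit it. Related jacalin proteins bind myrosinase, the enzyme that splits glucosinolates, or steer the products of that reaction, as the nitrile specifier proteins do.

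The study compared whole 7-day seedlings of the activation-tagging line cog1-2D with seedlings of the Col-0 wild type, whose genotype label reads No mutant. Each genotype had 3 RNA-seq libraries, numbered 0, 1 and 2. All seedlings were untreated, and MS medium, long days and 23 °C were used for both genotypes. In an activation-tagging line an inserted enhancer is meant to raise a neighbouring gene, here COG1, which encodes a Dof transcription factor. The labels name 1 mutant line and do not say whether the replicates came from separate cultures, so p-values measure only the spread between these samples.

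Libraries held between 10575945 and 11202122 fragments. Genes annotated on the minus strand had hardly any signal, with a median of 1 fragment over the 6 libraries against 985 for plus-strand genes. The share of fragments on minus-strand genes was 0.0301% in wild type replicate 1 and 0.139% to 0.169% in the others. COG1 lies on the minus strand and had 0, 0 and 0 fragments in wild type and 0, 3 and 3 in cog1-2D, so the genotype labels could not be checked through it. The shoot gene PSBO1, of the oxygen-evolving complex, had a mean of 9547 CPM (counts scaled to a common library size) in wild type, and the root hair gene EXPA7 had 19.1, so both organs of the labelled seedlings were represented.

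Strand divided the lectin genes completely. The 5 measured genes, JAL30 to JAL34, are all the plus-strand members, and the 4 unmeasured ones, JAL35, JAL20, JAL22 and JAL23, are all the minus-strand members. The chromosome 3 block spans 19.935 kb, chr3:5579290-5599224 in TAIR10.1. JAL30 (AT3G16420, chr3:5579290-5581032) and JAL31 (AT3G16430, chr3:5581568-5583258) are 535 bases apart. JAL32 (AT3G16440, chr3:5585872-5587798) and JAL33 (AT3G16450, chr3:5588292-5590085) are 493 bases apart. JAL34 (AT3G16460, chr3:5592491-5595912) overlaps the far end of JAL35 (AT3G16470, chr3:5595282-5599224), which is read in the opposite direction, by 631 bases. How fragments in the overlap were assigned is not given, and minus-strand genes such as JAL35 received hardly any.

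Coding sequences were most alike within some neighbouring pairs. Closeness on the chromosome did not always go with it, since the overlapping JAL34 and JAL35 shared 64.5% of aligned coding bases. JAL30 and JAL31 shared 89.0% of aligned coding bases, JAL32 and JAL33 shared 83.8%, and the chromosome 2 neighbours JAL22 and JAL23 shared 86.9%. All other pairs lay between 59.6% and 71.8%, and JAL33 with JAL34 was the closest of these. JAL34 had the longest coding sequence, 2118 bases, against 891 to 972 in the other 4 measured genes. The first stretch of 60 bases that aligned to JAL33 without gaps in each measured gene, taken from RefSeq gene models on TAIR10.1, is printed to show how far the copies can be told apart. Capitals mark bases that differ from JAL33.
JAL33: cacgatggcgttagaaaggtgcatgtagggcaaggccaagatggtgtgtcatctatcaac
JAL32: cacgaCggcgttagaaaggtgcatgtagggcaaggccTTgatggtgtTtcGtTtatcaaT
JAL34: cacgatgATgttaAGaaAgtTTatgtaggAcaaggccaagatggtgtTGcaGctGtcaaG
JAL30: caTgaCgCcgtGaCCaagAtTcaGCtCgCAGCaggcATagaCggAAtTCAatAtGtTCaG
JAL31: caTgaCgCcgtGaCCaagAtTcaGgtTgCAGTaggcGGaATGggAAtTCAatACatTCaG
Over this stretch JAL32 differed from JAL33 at 7 bases, JAL34 at 13, JAL30 at 28 and JAL31 at 29.

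**Figure D1:**
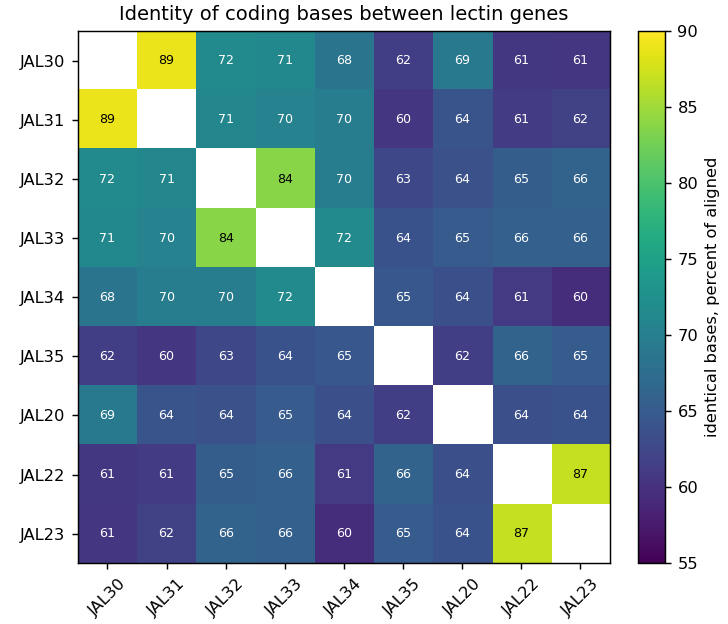
Identity of coding bases between the 9 lectin genes, as a percent of aligned bases, for every pair; rows and columns are genes and the colour runs from low (dark) to high (yellow). The bright cells are JAL30 with JAL31 (89.0%), JAL22 with JAL23 (86.9%) and JAL32 with JAL33 (83.8%).

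Exact repeats long enough to confuse fragments were few. Of the words of 50 exonic bases in JAL33, JAL32 and JAL34, 0 occurred elsewhere in the genome. In JAL30 the share was 1.53% and in JAL31 1.57%, and with words of 75 bases it was 0 in all 9 genes. At 25 bases, 2.14% of the words of JAL33 and 8.66% of those of JAL30 were found elsewhere. The fragments of JAL30 and JAL31 are therefore the less certain to divide, and the read length is not given in the sources used here.

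The upstream sequences also differed between the pairs. The 250 bases before the annotated start are shown for both close pairs of the block. Log2 fold changes between the genotypes were 0.16 and 0.33 for JAL30 and JAL31, and -0.21 and -4.89 for JAL32 and JAL33. The levels of JAL30 and JAL31 were far apart, with means of 1397 and 71.4 CPM in wild type. Capitals mark CANNTG, the E-box read by bHLH transcription factors, the family of the ER body regulator NAI1.
JAL30: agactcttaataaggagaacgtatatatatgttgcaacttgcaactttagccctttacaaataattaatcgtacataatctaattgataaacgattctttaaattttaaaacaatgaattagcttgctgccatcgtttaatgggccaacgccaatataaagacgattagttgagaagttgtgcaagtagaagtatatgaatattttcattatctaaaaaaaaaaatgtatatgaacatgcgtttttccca
JAL31: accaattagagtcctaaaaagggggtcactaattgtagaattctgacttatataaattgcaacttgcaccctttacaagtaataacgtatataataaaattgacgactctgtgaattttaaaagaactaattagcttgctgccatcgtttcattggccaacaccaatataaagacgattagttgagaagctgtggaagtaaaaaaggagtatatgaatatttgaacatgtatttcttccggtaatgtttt
JAL32: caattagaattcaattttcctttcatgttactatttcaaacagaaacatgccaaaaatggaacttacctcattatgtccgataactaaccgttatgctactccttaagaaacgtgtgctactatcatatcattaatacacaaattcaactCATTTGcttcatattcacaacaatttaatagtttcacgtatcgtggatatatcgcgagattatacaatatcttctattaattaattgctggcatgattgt
JAL33: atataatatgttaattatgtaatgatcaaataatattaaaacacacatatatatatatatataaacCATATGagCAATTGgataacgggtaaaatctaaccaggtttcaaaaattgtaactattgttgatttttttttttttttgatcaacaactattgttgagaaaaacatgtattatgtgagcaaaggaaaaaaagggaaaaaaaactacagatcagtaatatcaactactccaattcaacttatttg
In genome order these windows are chr3:5579040-5579289, chr3:5581318-5581567, chr3:5585622-5585871 and chr3:5588042-5588291, all on the plus strand of TAIR10.1. JAL30 and JAL31 shared 183 of 250 upstream bases in alignment, with a longest common run of 27 bases. Among all other pairs the shared bases were at most 54.8% of the window, against 73.2% for JAL30 and JAL31.

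JAL33, JAL35 and JAL22 each had 2 E-boxes in this window, JAL32 and JAL23 had 1, and JAL30, JAL31, JAL34 and JAL20 had 0. Of 27443 promoters of that length 55.3% held at least 1, and the median was 1. The G-box CACGTG, a special case of the E-box, was in 0 of the 9 lectin windows and in 6.49% of all promoters. The letters AAAG, the core bound by Dof factors such as COG1, occurred 4 times before JAL30, 5 times before JAL31 and JAL34, 2 times before JAL33 and 1 time before JAL32. All promoters had a median of 4 AAAG matches and 98.0% had at least 1. The W-box core TTGAC, read by WRKY factors, occurred 1 time before JAL31, JAL34, JAL35 and JAL22, and 44.9% of promoters held it. GCCGCC was in 0 of the 9 and in 1.87% of promoters. Both strands were searched for each motif, and a match is only a match of letters.

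JAL33 stood apart from the other lectin genes between the genotypes. Its CPM was 332, 366 and 306 in wild type replicates 0, 1 and 2. In cog1-2D it was 10.2, 12.03 and 11.6. Every mutant library lay far below every wild type library, and the values within a genotype were close together. The means were 335 ± 29.8 CPM in wild type and 11.3 ± 0.9 in cog1-2D (SD, n = 3), a log2 fold change of -4.89 ± 0.09 (SE), or 29.7-fold lower. These CPM rest on 10924 fragments in wild type and 363 in cog1-2D. Each mutant library still held fragments assigned to JAL33, with counts of 109, 126 and 128. Whether any of these came from similar copies was not tested. In whole seedlings, fewer cells that express a gene and less RNA per cell cannot be told apart. The sequence of the JAL33 gene in the cog1-2D line was not examined.

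JAL34 was lower by a much smaller amount. Its CPM was 854, 1047 and 912 in wild type and 584, 671 and 649 in cog1-2D. The genotypes did not overlap, and the mutant mean was 67.7% of the wild type mean (log2 fold change -0.56 ± 0.09 SE). JAL34 is the longest of the measured lectins, with jacalin domains repeated along the protein.

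JAL30 and JAL31, the pair with the most similar coding sequences, were not lower in the mutant. JAL30 had 1337, 1499 and 1355 CPM in wild type and 1415, 1639 and 1637 in cog1-2D. These ranges overlapped, since wild type replicate 1 lay above cog1-2D replicate 0, and the log2 fold change was 0.16 ± 0.08 (SE). JAL31 had 68.9, 77.9 and 67.3 CPM in wild type and 84.9, 88.9 and 95.4 in cog1-2D. Here all mutant libraries lay above all wild type libraries, with a log2 fold change of 0.33 ± 0.07.

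JAL32, the myrosinase-binding protein-like gene MLP-300B and the closest copy of JAL33, overlapped between genotypes. It had 25.01, 30.3 and 24.3 CPM in wild type and 22.9, 20.1 and 25.7 in cog1-2D. Its log2 fold change was -0.21 ± 0.12 (SE), so the fold changes of this close pair lay much farther apart than either standard error.

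**Figure D2:**
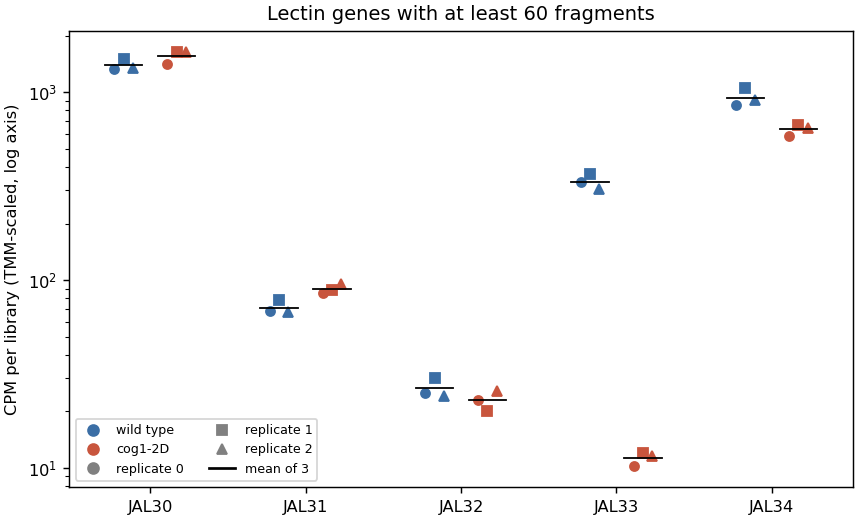
CPM of the 5 measured lectin genes in each library on a log axis, with wild type in blue and cog1-2D in red, marker shape for the replicate number and a bar at the mean of 3. JAL33 drops from 335 to 11.3 CPM, while the other 4 genes stay within 1.48-fold of their wild type mean.

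The fit called 1 of the 5 measured genes higher (JAL31) and 2 lower (JAL33 and JAL34), where 16.3% of the 10347 tested genes were called higher and 20.0% lower. Genotypes did not overlap in the same 3 genes, against 49.8% of all tested genes. Since this contrast helped to choose the genes, these counts only describe them. Over all tested genes, 88 (0.85%) were called lower by more than JAL33 was. The authors' deposited table lists the same 3 genes, with a log2 fold change of -4.76 for JAL33, -0.56 for JAL34 and 0.34 for JAL31.

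Ratios within a library, which need no scaling between libraries, showed the same contrast between neighbours. For every 100 fragments of JAL30 there were 24.8, 24.4 and 22.6 of JAL33 in wild type and 0.722, 0.734 and 0.707 in cog1-2D. JAL34 stood at 63.9, 69.9 and 67.3 per 100 of JAL30 in wild type and at 41.3, 41.0 and 39.6 in cog1-2D. JAL31 had 4.97 to 5.19 per 100 of JAL30 in wild type and 5.42 to 6.004 in cog1-2D. The JAL33 to JAL30 ratio varied little among the mutant libraries, although JAL30 itself ranged from 1415 to 1639 CPM in them. Whether fragments of the other lectin genes were counted as JAL33 was not tested.

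Levels between genes were compared as FPKM, which divides fragments by transcript length and library size. In wild type the order was JAL30 (1388 ± 100.4 FPKM, SD, n = 3), JAL34 (367 ± 42), JAL33 (305 ± 26), JAL31 (63.6 ± 5.5) and JAL32 (25.4 ± 3.3). JAL34 and JAL33 were neighbours whose ranges overlapped, 331 to 414 and 280 to 332 FPKM, and no other neighbours among the measured genes overlapped. In cog1-2D the order was JAL30 (1563 ± 132 FPKM), JAL34 (249 ± 18), JAL31 (80.4 ± 5.0), JAL32 (22.1 ± 2.7) and JAL33 (11.2 ± 1.0), with no overlap. JAL33 moved from rank 3 of the 5 genes to rank 5.

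The make-up of the lectin transcripts changed accordingly. JAL33 was 14.2% ± 0.6 (SD, n = 3) of the summed FPKM of the 5 genes in wild type and 0.583% ± 0.011 in cog1-2D. JAL30 was 64.6% ± 0.6 in wild type and 81.1% ± 0.4 in cog1-2D. JAL34 went from 17.1% ± 0.7 to 12.95% ± 0.26. The summed level itself was 2149 ± 173 FPKM in wild type and 1926 ± 154 in cog1-2D. Single libraries did not overlap, with 2033 to 2348 FPKM in wild type and 1747 to 2016 in cog1-2D, but the lowest wild type value lay only just above the highest mutant value.

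**Figure D3:**
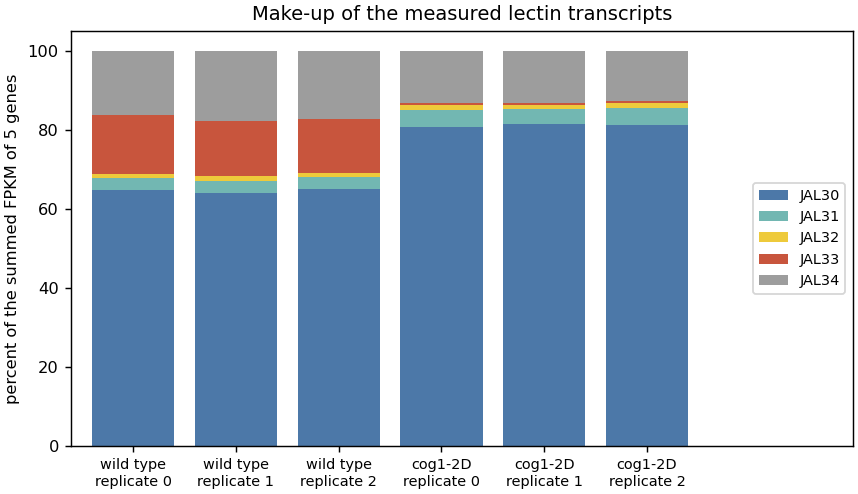
Share of each measured lectin gene in the summed FPKM of the 5 genes, in percent, as stacked bars for each of the 6 libraries. The red JAL33 band takes 13.6% to 14.8% of each wild type bar and 0.574% to 0.595% of each cog1-2D bar.

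Within a genotype the lectin genes shared a high or low library. Wild type replicate 1 had the highest CPM of its genotype in 5 of the 5 genes. In cog1-2D, replicate 0 had the lowest CPM in 4 of the 5, JAL32 being the exception with its lowest value in replicate 1. Wild type replicate 1 is also the library with the low minus-strand share, and the part of that in the lectin values was not tested. Without it the log2 fold change was -4.82 for JAL33, -0.48 for JAL34, -0.10 for JAL32, 0.40 for JAL31 and 0.22 for JAL30. The value of JAL32 thus moved the most in proportion, from -0.21.

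The 4 minus-strand lectins gave no usable level. JAL35, also called JASMONATE RESPONSIVE 1 for its response to jasmonate, had 6, 0 and 3 fragments in wild type and 1, 1 and 4 in cog1-2D. JAL22 (AT2G39310, chr2:16414034-16416845) had 7, 0 and 3 in wild type and 2, 4 and 16 in cog1-2D. Of the 22 mutant fragments of JAL22, 16 were in replicate 2, and the genotypes overlapped. JAL20 (AT2G25980, chr2:11077438-11079968) and JAL23 (AT2G39330, chr2:16419483-16422158) had 0 in each library. A count of 0 over all libraries allows up to 3 fragments, or 0.0462 CPM, a limit that covers counting error only and, on the nearly unmeasured strand, says nothing of the transcript level.

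Some of the tested genes nearest to the block passed the test, in both directions. The comparison asked whether the tested genes nearest to the lectin block, 5 on each side, differed between genotypes, and in edgeR's test 4 rose, 2 fell and 4 did not pass. Over all tested genes 36.3% passed in either direction. The 3 nearest genes before JAL30 are the nitrile specifier genes NSP4, NSP1 and NSP3, which encode jacalin-domain proteins that direct glucosinolate breakdown to simple nitriles, and all 3 rose. NSP4 had 43.2, 38.1 and 37.1 CPM in wild type and 76.0, 79.0 and 81.3 in cog1-2D, a log2 fold change of 0.997 ± 0.071 (SE, edgeR adjusted p = 8.76e-06). NSP1 rose from 510 ± 15 to 730 ± 32 CPM (SD, n = 3, edgeR adjusted p = 0.000106). NSP3 rose from 2.18 ± 0.16 to 6.498 ± 1.819 CPM (edgeR adjusted p = 0.00112).

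Farther out the changes were mixed. AHP4, a phosphotransfer gene of cytokinin signalling 23.5 kb before JAL30, fell by 1.31 ± 0.32 on the log2 scale (edgeR adjusted p = 0.0124). With cog1-2D replicate 1 left out it no longer passed (-1.13, edgeR adjusted p = 0.0547). AT3G16370, a lipase-like gene between AHP4 and NSP3, did not pass (0.059 ± 0.080). On the other side MPPalpha, a subunit gene of the mitochondrial processing peptidase 0.486 kb from JAL35, fell by 0.23 ± 0.05 (edgeR adjusted p = 0.00749). AT3G16650, a WD40 repeat gene 71.8 kb away, rose by 1.01 ± 0.12 (edgeR adjusted p = 0.000169). RALF23, TCTP and AT3G16660, at 45.4, 70.1 and 77.5 kb, did not pass, with log2 fold changes of 0.040, 0.15 and -0.20. TCTP is on the nearly unmeasured minus strand, with 37, 4 and 30 fragments in wild type and 25, 24 and 28 in cog1-2D. From NSP3 through to MPPalpha, log2 fold changes were thus 1.57, 0.52, 0.997, 0.16, 0.33, -0.21, -4.89, -0.56 and -0.23 in genome order.

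**Figure D4:**
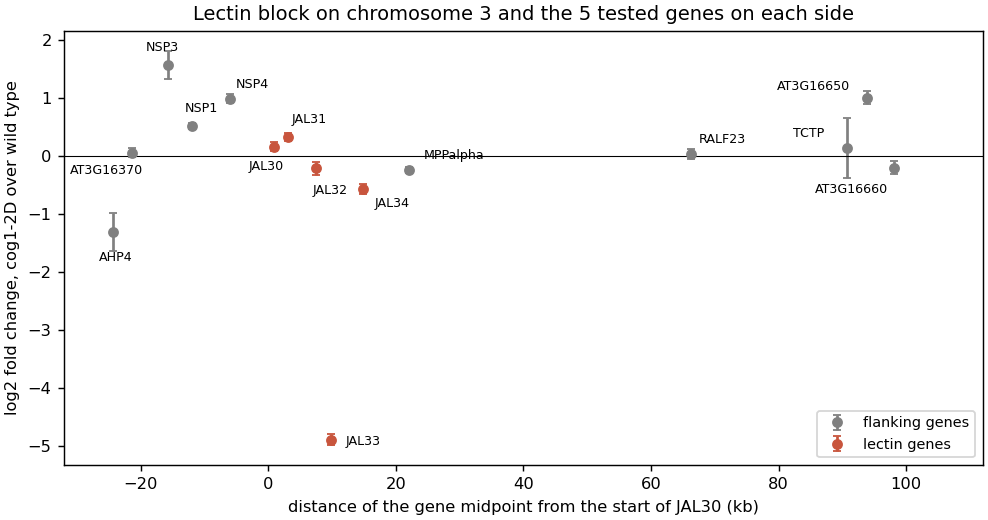
Log2 of the mutant to wild type ratio (error bars, SE) for the 5 measured lectin genes in red and 10 flanking tested genes in grey, by distance in kb from the start of JAL30. JAL33 lies at -4.89, between JAL32 at -0.21 and JAL34 at -0.56, and the NSP genes lie above 0 on the left.

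The wider jacalin family was strongly divided. Of 42 further genes annotated as jacalin-related, mannose-binding lectin superfamily or nitrile specifier, 25 are minus-strand genes, of which 0 were tested. Tests were made for 11 of the 17 plus-strand genes: 5 rose, 4 fell and the other 2 missed the threshold. Of the 5 that rose, 3 are the flanking genes NSP1, NSP3 and NSP4 described above. The median log2 fold change was 0.52, the value of NSP1, against 0.00 over all tested genes, of which 36.3% were called in either direction.

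Some of these genes changed by more than most of the lectin block. AT5G35940 fell from 13.2 to 2.48 CPM (log2 fold change -2.40 ± 0.16, edgeR adjusted p = 6.13e-06). AT3G21380 had 71 fragments in wild type and 9 in cog1-2D (-2.90 ± 0.66, edgeR adjusted p = 0.00826). Replicate 2 of cog1-2D gave 7 of those 9, and omitting it moved the log2 fold change to -4.35. AT1G60110 had 104 fragments in wild type and 0 in cog1-2D, which makes it at least 34.3-fold lower when the mutant group is set to 3 fragments in all (edgeR adjusted p = 0.000162). AT1G33790, named after its value was seen, fell by 0.53 ± 0.17 (edgeR adjusted p = 0.0374) although its libraries overlapped. AT1G33790 missed the threshold in 4 of the 6 fits that omitted a library, those without cog1-2D replicate 0, cog1-2D replicate 1, wild type replicate 1 or wild type replicate 2, with edgeR adjusted p between 0.0161 and 0.122 over the 6, and in both limma fits. Among those that rose, AT1G60095 went from 8.39 to 19.7 CPM (1.23 ± 0.09, edgeR adjusted p = 1.45e-05). AT1G60130 rose from 0.795 to 2.51 CPM (1.64 ± 0.34, edgeR adjusted p = 0.00533).

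Among PYK10 and the genes of its compartment none passed the test in edgeR. The question was whether genes of the ER body, the compartment of the enzyme that these lectins bind, differed between the genotypes, and of 13 such genes 6 were tested, with 8 of the 13 on the nearly unmeasured strand. By edgeR 0 of the 6 passed, against 36.3% of all tested genes in either direction. An unadjusted p under 0.05 was found for 1 of the 6, and DESeq2 called 1. With so few genes tested, such counts only describe the list. The median log2 fold change was -0.15. NAI1, the bHLH regulator needed for ER bodies, had 70.6, 72.8 and 57.4 CPM in wild type and 58.7, 60.2 and 59.3 in cog1-2D, with overlapping genotypes (-0.17 ± 0.09).

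GLL25, a GDSL lipase-like gene of the PYK10 complex group, was at 129, 141 and 132 CPM in wild type and 123, 131 and 136 in cog1-2D. Its libraries overlapped and its log2 fold change was -0.040 ± 0.060. TSA1, an ER body protein gene related to NAI2, had -0.42 ± 0.15 (edgeR adjusted p = 0.0591). TSA1 passed without cog1-2D replicate 0 (edgeR adjusted p = 0.0348) and without wild type replicate 1 (edgeR adjusted p = 0.00884). PYK10 is on the minus strand and was tested at the low level left there, with 8.16, 1.23 and 8.29 CPM in wild type and 4.03, 4.87 and 4.43 in cog1-2D. Without wild type replicate 1, the library with 1.23, PYK10 passed at -0.89 (edgeR adjusted p = 0.0031), and NAI1 passed without wild type replicate 2 at -0.27 (edgeR adjusted p = 0.0127). NAI2 had 24 and 30 fragments and was not tested.

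JAL35 is known for its response to jasmonate, so jasmonate-induced genes were set beside the block. Of 12 listed, 6 were tested, 1 fell and 5 did not pass, with a median of -0.30. The share called lower among all tested genes was 20.0%. The one that fell was AOC2, an allene oxide cyclase gene of jasmonate synthesis, which had 143, 130 and 215 CPM in wild type and 14.05, 21.96 and 40.6 in cog1-2D (-2.66 ± 0.32, edgeR adjusted p = 0.000247). AOC2 has similar copies in the genome, so the division of fragments among them is uncertain. The summed CPM of the 6 tested genes ran from 555 to 1110 in wild type and from 439 to 788 in cog1-2D, overlapping between genotypes.

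Root and shoot markers were set beside the lectins because the seedlings were harvested whole. Of 10 root markers 6 were tested and 2 fell, where 20.0% of all tested genes were called lower. These were the root hair expansin EXPA7 (-1.01 ± 0.11, edgeR adjusted p = 0.000132) and SCR (-0.30 ± 0.09, edgeR adjusted p = 0.0257). SCR, a regulator of root radial pattern, did not pass with cog1-2D replicate 1, cog1-2D replicate 2 or wild type replicate 0 left out (edgeR adjusted p = 0.0852, 0.0873 and 0.0629). The median log2 fold change of the 6 tested root markers was -0.23. Their summed CPM ran from 385 to 550.02 in wild type and from 430.2 to 650.05 in cog1-2D. Most of that sum was the iron transporter gene IRT1, which did not pass (log2 fold change 0.39). IRT1 had 340, 219 and 386 CPM in wild type and 278, 507 and 456 in cog1-2D, so the sum says little of the other root markers. Of 8 shoot markers, 5 lie on the nearly unmeasured strand with little signal, each lowest in wild type replicate 1. Of the 8, by edgeR 0 passed, against 36.3% of all tested genes in either direction. An unadjusted p under 0.05 was found for 1 of the 8, and DESeq2 called 0. The summed level of the shoot markers ran from 33811 to 41331 CPM in wild type and from 40571 to 41840 in cog1-2D. Most of that sum was the antenna gene LHCB1.3, at 20168, 25475 and 24526 CPM in wild type and 24257, 25079 and 25354 in cog1-2D. The sum thus says little of the minus-strand shoot markers. PSBO1, higher in each mutant library than in any of wild type, did not pass (0.18 ± 0.08, edgeR adjusted p = 0.114), nor did LHCB2.1, a minus-strand antenna gene (-1.11 ± 0.48, edgeR adjusted p = 0.1), which passed without wild type replicate 1 (edgeR adjusted p = 0.000863). The part of tissue make-up in the lectin values was not tested.

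**Figure D5:**
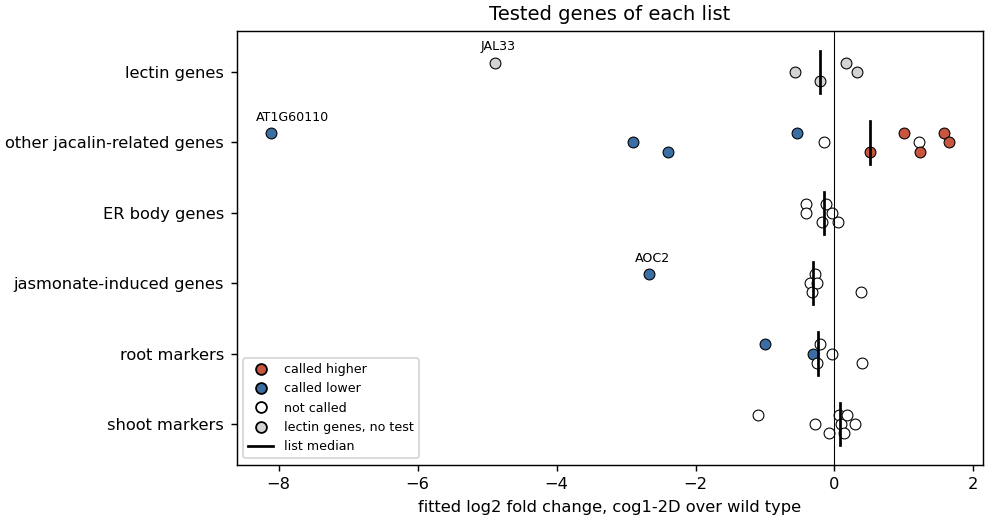
Fitted log2 fold change of each tested gene by list, with calls in colour, the lectin genes in grey without a test and a bar at each list's median. Of the ER body genes 0 of 6 were called, against 36.3% of all tested genes, while the other jacalin-related genes spread to both sides. AT1G60110 is drawn at its fitted value, which is no bound because it had 0 fragments in cog1-2D.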

How the data were processed

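Messenger RNA of 6 libraries was analysed from tables of gene-level values. The submitters' processing notes name HISAT2 2.1.0, Trimmomatic 0.36, Cuffdiff, Cufflinks 2.2.1 and, as build, TAIR10. The sources used here do not give their order, the annotation or the strand setting. For each gene in each library the deposited table gives an expected count of fragments, 98.1% of them whole within 1e-06, and an FPKM value scaled by the authors, per the file headers. The authors' table of called genes gives FPKM per genotype, a log2 fold change and a q-value, per the file headers.

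Expected counts were rounded and tested with edgeR 4.0.16 (R 4.3.3): filterByExpr, TMM factors, quasi-likelihood F-test with genotype as the only term, and Benjamini-Hochberg adjustment at 0.05 over 10347 genes. The standard error is the log2 fold change divided by the square root of F. This code was tested on simulated counts. Alternatives were DESeq2 1.42.0, limma 3.58.1 on log2(FPKM + 1) and log2(FPKM + 0.1), other scaling factors (upper quartile, RLE), no filter or a mean of 50 counts, the replicate number as a block, and omitting single libraries.

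The members and gene lists were chosen with earlier results of these data known. All members were named, with up to 6 called genes per list (or the 2 with the smallest p), the flanking genes, NAI1, NAI2, PYK10 and the 5 genes most like the lectins. Of 33617 identifiers, 32225 matched the TAIR10.1 reference, the source of positions and sequences. Coding sequences of the longest model were aligned with Biopython 1.88. Counts carry no correction for genes with shared sequence.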

Additional observations from a re-analysis of the deposited data

How the results depend on the processing

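The log2 fold change of JAL33 was -4.64 with limma on log2(FPKM + 1) and -4.75 with log2(FPKM + 0.1), both moved by more than the spread between replicates. It ran from -4.95 to -4.82 when any 1 library was left out. JAL30, JAL31, JAL32 and JAL34 kept their sign under every alternative run and moved by less than that spread. A limit of 30 fragments would add JAL22 to the measured genes, for 6 in all, and a limit of 120 would keep 5. The replicate numbers did not pair the libraries (correlations of same-numbered deviations -0.01, -0.02 and 0.11). The fit with a replicate block called 1863 genes higher and 2230 lower, with 1 ER body gene lower, 2 jasmonate genes lower and 1 shoot marker higher. With no low-count filter, 1 ER body gene was lower, 2 jasmonate genes lower, 1 root marker higher and 1 shoot marker lower. DESeq2 called 1 ER body gene lower. A mean of 50 counts left 3 other jacalin genes higher and 2 lower, with fewer genes tested. With 1 library left out, the number lower ran from 0 to 2 for ER body genes, 1 to 2 for jasmonate genes, 1 to 3 for root markers, 0 to 2 for shoot markers and 1 to 2 for flanking genes. Root markers higher ran from 0 to 1. Signs turned without wild type replicate 0 for AT3G16370 (-0.030 to 0.13 over the omissions) and RALF23 (-0.044 to 0.12), without wild type replicate 1 for TCTP (-0.34 to 0.57), and for PYK10 (7.2e-06) with limma on log2(FPKM + 0.1), none of them past the threshold. Where no construction shows it, the cause was not tested. The 4 minus-strand lectins had too few fragments for a level.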

Other observations

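A group of mannose-binding lectin genes on chromosome 1, outside the JAL30 block, held changes in opposite directions within a short distance. AT1G60095 (chr1:22159694-22162426) rose by 1.23 ± 0.09 on the log2 scale (SE), and AT1G60130 (chr1:22173937-22176343) rose by 1.64 ± 0.34. AT1G60110 (chr1:22168424-22170803), between them, had 104 fragments in wild type and 0 in cog1-2D. All 3 lie on the plus strand, and their libraries did not overlap between genotypes.

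The genes whose pattern was most like the mean of the 5 measured lectins, standardised over the 6 libraries, were AT3G53580 (Pearson r = 0.971), GLL25 (0.943), TOPP2 (0.937), CP33 (0.937) and NRPB8B (0.929), chosen as the highest of 5075 genes. These values share libraries and scaling and are a description only. The lectins' own correlations with that mean were 0.82 for JAL32, 0.67 for JAL34, 0.45 for JAL33, 0.29 for JAL30 and 0.015 for JAL31. The mean thus stood poorly for JAL33, JAL30 and JAL31. None of the 5 genes most like the mean was called, and their log2 fold changes ran from -0.054 to -0.026, so they did not share the fall of JAL33.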
